A study of Mus musculus with 2 samples.

Results

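The transcripts described here encode carriers that move amino acids, neurotransmitters and related small molecules across membranes, in cells of the mouse basolateral amygdala, a brain region that attaches value to food and other rewards. They are the genes whose symbols begin with Slc1a, Slc3a, Slc6a, Slc7a, Slc36a or Slc38a and that had at least 20 unique molecules (UMIs) summed over both libraries. The members were thus chosen by their symbols and by their summed UMIs in these libraries, so their presence here is no result. Slc1a2 and Slc1a3, the glutamate carriers for which astrocytes are best known, were left out. The rule kept 40 of the 60 genes of these 6 families with a column, out of 25120 genes in all. The last genes inside the threshold were Slc6a3, the dopamine transporter, with 14 UMIs in the FGF21 and 6 UMIs in the vehicle library, and Slc38a5, a glutamine carrier, with 12 FGF21 and 11 vehicle UMIs. Slc6a19 fell just outside it, with 8 FGF21 and 9 vehicle UMIs. The 40 genes comprise 12 of the Slc7, 11 of the Slc6, 9 of the Slc38, 4 of the Slc1, 3 of the Slc36 and 1 of the Slc3 family. Among them, Slc7a6os has a matching symbol but is a neighbour of Slc7a6 on the opposite strand and is not a carrier of this kind.

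The FGF21 library came from adult C57BL/6 mice given 1 mg/kg of FGF21, a liver hormone, once per day for 3 days, and the vehicle library from adult C57BL/6 mice given vehicle on the same schedule. Basolateral amygdala from 3 mice was pooled for each treatment, dissociated with pronase in the presence of actinomycin D, and sorted for living cells with the red fluorescent protein tdTomato. The series is titled for cells expressing KLB, the co-receptor of FGF21, but the labels do not name the driver of the reporter. There was thus 1 library per treatment and no replicate, so differences between the treatments were described by their size and carry no test, and intervals cover counting error only.

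After filtering, 1938 FGF21 and 2336 vehicle cells remained, with medians of 6840 UMIs in FGF21 and 4234 UMIs in vehicle cells. Clusters named from marker genes gave 890 FGF21 and 1417 vehicle microglia-like cells, 576 and 370 oligodendrocyte precursor-like cells, 38 and 38 differentiating precursor-like cells, 82 and 41 oligodendrocyte-like cells, 192 and 99 astrocyte-like cells, and 40 and 181 mural-like cells, which surround vessels. Levels were ranked over these 6 classes, and the treatments were compared in the microglia-like, precursor-like and astrocyte-like cells. The libraries separated within classes, and with 1 library per treatment, treatment and library cannot be told apart. Of the microglia-like clusters, 1 held 864 FGF21 and 24 vehicle cells and the other 26 and 1393, and of the precursor-like clusters, 1 held 534 and 20 and the other 42 and 350. No cluster was named neuron-like: the 1 cluster led by neuron markers (30 FGF21 and 14 vehicle cells) also had cell division genes among its leading genes and stayed unnamed. Markers in classes that should lack them lay at 33.7% of the level over all FGF21 cells and 28.0% of that over all vehicle cells. These are medians of 12 pairs of a marker list and a class. Single pairs ran from 23.3% to 55.4% in FGF21 and from 19.9% to 34.2% in vehicle cells. The median share of a gene's average level is called its background below, and whether it was free RNA was not tested. The libraries shared 12 cell index numbers. Exons of 11 of the 40 genes overlap those of another gene on the opposite strand, and whether the counting used strand is not given in the sources used here.

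Amino acid carriers belong to a few structural families. The Slc1 family takes up glutamate, aspartate and small neutral amino acids with sodium. The Slc6 family takes up GABA, glycine, taurine, creatine, proline and monoamines with sodium and chloride and ends transmission at synapses. Most Slc7 light chains reach the surface only when bound to the heavy chain encoded by Slc3a2 and exchange one amino acid for another. The Slc38 family carries glutamine and other neutral amino acids, and several Slc36 and Slc38 proteins work in the lysosome membrane, where amino acids are sensed by the mTORC1 kinase. In the brain, astrocytes clear glutamate and GABA and return glutamine to neurons.

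Many of these genes are known to be induced by the transcription factor ATF4 when amino acids run short, through a composite element that reads TGATGNAA on one strand or TTNCATCA on the other. Promoter entries of RefSeq (GRCm38.p6, 250 bases before to 50 bases after the start) were found for 28 of the 40 genes, and 3 of these held a match to those letters on either strand, Slc7a11, Slc1a4 and Slc7a7. Some genes have several entries: 4 of the 39 promoter entries of these genes held a match, and so did 3.97% of all 32851 entries of the table. The 3 promoters are shown because the first 2 genes had their highest ranked level in astrocyte-like and the third in microglia-like cells. All 3 genes lie on the minus strand, the promoters span chr3:50443564-50443863, chr11:20332664-20332963 and chr14:54417895-54418194, and capitals mark the matches. The Slc7a11 promoter held 2 matches in opposite orientation, beginning 66 and 47 bases before the start, and that of Slc1a4 held 1, beginning 4 bases before it. The Slc7a7 entry shown held 2 matches in the same orientation. A match describes letters and does not show that a factor binds.
Slc7a11: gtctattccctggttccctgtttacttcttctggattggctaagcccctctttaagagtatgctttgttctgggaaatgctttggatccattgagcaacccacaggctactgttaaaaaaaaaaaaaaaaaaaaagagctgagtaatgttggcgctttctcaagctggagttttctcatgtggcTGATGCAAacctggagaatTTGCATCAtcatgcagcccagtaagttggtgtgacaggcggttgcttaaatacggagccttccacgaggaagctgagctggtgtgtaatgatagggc
Slc1a4: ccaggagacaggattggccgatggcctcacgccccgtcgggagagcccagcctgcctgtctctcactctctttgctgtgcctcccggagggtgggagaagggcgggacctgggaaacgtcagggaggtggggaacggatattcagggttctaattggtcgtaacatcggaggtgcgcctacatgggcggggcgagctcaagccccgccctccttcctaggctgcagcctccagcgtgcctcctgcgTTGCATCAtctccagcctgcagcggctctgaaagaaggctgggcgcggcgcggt
Slc7a7: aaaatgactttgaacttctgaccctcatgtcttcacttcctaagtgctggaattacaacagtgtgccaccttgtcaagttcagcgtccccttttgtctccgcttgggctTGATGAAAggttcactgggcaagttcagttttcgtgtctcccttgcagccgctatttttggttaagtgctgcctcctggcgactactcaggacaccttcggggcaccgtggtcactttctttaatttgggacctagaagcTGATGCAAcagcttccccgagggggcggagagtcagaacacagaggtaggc

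The carriers divided among the classes in much the same way in both libraries. Of the 40 genes, 31 had the same highest of the 6 ranked classes in FGF21 and vehicle cells, which was also so for 57.8% of all 15223 genes with at least 20 UMIs. These 31 comprised 9 microglia-like, 8 astrocyte-like, 6 mural-like, 3 oligodendrocyte-like, 3 differentiating precursor-like and 2 precursor-like genes. Of all 15223 genes, the same class was highest in both libraries for 12.5% in microglia-like, 7.91% in astrocyte-like, 10.4% in mural-like, 5.76% in oligodendrocyte-like, 8.20% in differentiating precursor-like and 13.0% in precursor-like cells. Of the 40 genes, 10 were at least 5-fold above the next class in both libraries, against 4.82% of all genes. For 20 genes the interval of the ratio to the next class lay above 1 in both libraries. For the other 11 of the 31 it did not, so their order is not settled at this depth. These intervals were not computed for all genes, so the 20 have no share over all genes beside them. Summed over the 40 genes, astrocyte-like cells had 5008 CPM in FGF21 and 5229.8 CPM in vehicle cells, mural-like cells 3139 CPM in FGF21 and 3389.7 CPM in vehicle cells, precursor-like cells 2555 CPM in FGF21 and 2612 CPM in vehicle cells, differentiating precursor-like cells 2457 CPM in FGF21 and 2457 CPM in vehicle cells, microglia-like cells 2261 CPM in FGF21 and 2288 CPM in vehicle cells and oligodendrocyte-like cells 1959 CPM in FGF21 and 2071 CPM in vehicle cells, where CPM is the number of UMIs of a gene per 1000000 UMIs of the class. The order of the 6 sums matched between the libraries. Among classes too small for the ranking, fibroblast-like cells had a higher sum than astrocyte-like cells, with 6039 CPM in FGF21 and 7390 CPM in vehicle cells. Endothelial-like cells had 4368 CPM in FGF21 and 4387 CPM in vehicle cells, and the other small named classes lay below the oligodendrocyte-like sum.

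**Figure D1:**
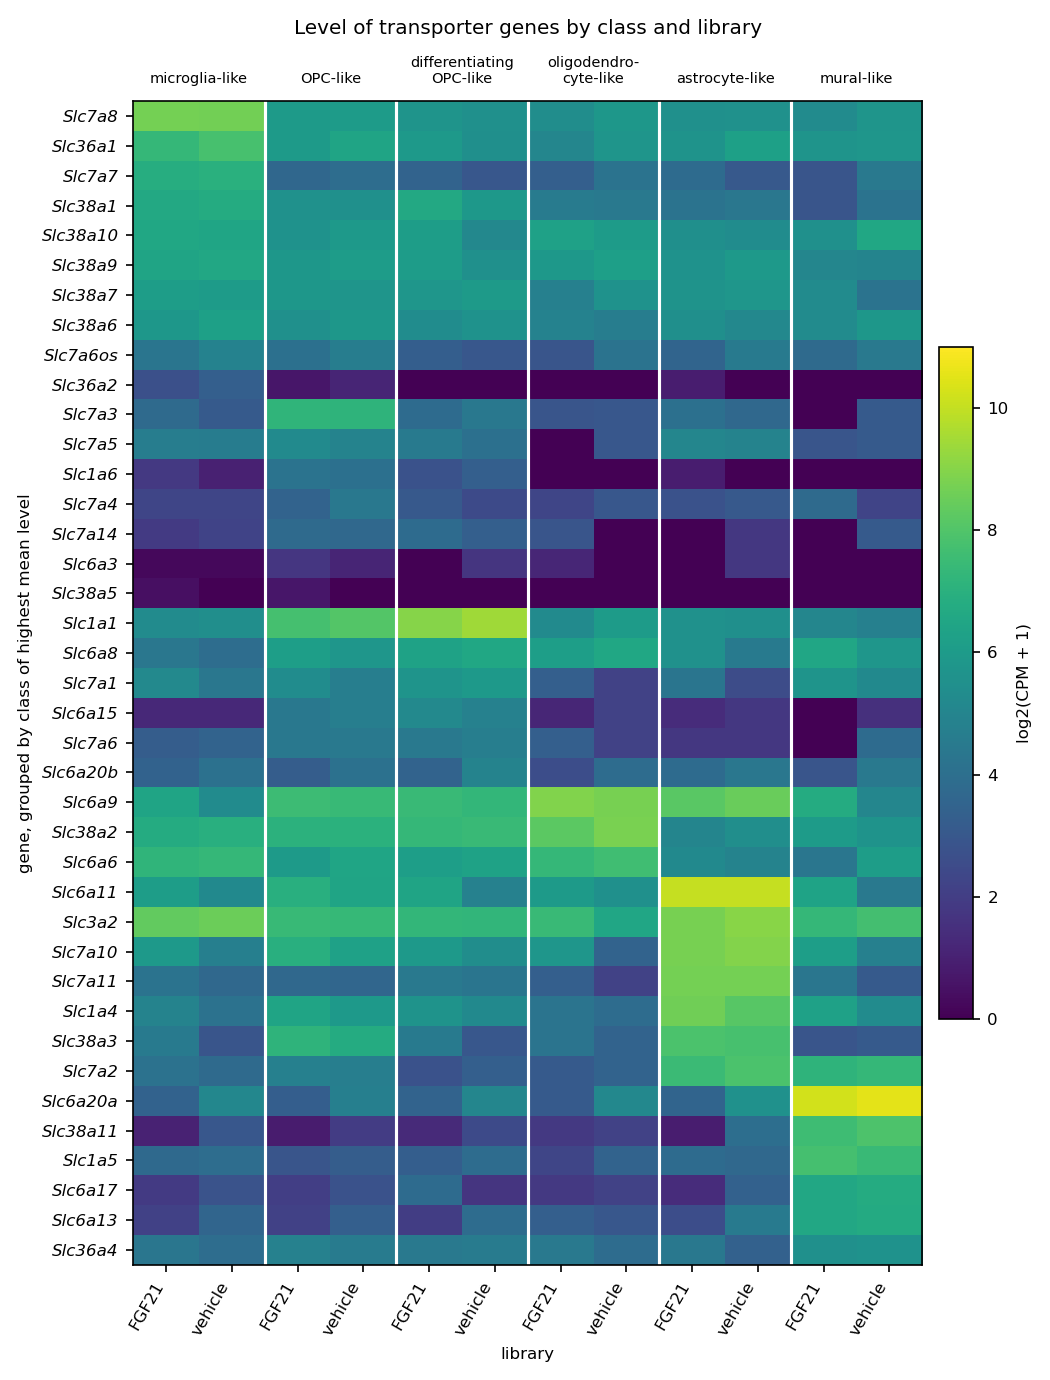
Levels of transporter genes in the 6 ranked classes of each library, with genes in rows and FGF21 left of vehicle within a class. Colour gives log2(CPM + 1), and blocks of genes high in microglia-like, astrocyte-like and mural-like cells recur in both libraries.

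In astrocyte-like cells a sodium- and chloride-dependent GABA carrier stood out. Slc6a11 (chr6:114131241-114249952), the GABA transporter GAT3 of astrocyte processes, had 1034 (977 to 1093) CPM in FGF21 and 1054 (957 to 1159) CPM in vehicle cells (95% counting intervals in brackets here and below). The next class was the precursor-like cells, with 120.3 CPM in FGF21 and 84.8 CPM in vehicle cells, and the ratio to them was 8.59 (7.79 to 9.48) times in FGF21 and 12.4 (10.5 to 14.7) times in vehicle cells. Thinned to 2000 UMIs per cell, 84.1% of 164 FGF21 and 83.1% of 77 vehicle astrocyte-like cells had a Slc6a11 UMI, with 28 and 22 shallower cells left out. The share was 15.1% of 867 FGF21 and 6.09% of 1346 vehicle microglia-like cells, a class in which most Slc6a11 UMIs equalled background. Unthinned shares were 93.2% of FGF21 and 85.9% of vehicle astrocyte-like cells, at median depths of 6115 UMIs in FGF21 and 4194 UMIs in vehicle cells. They were 34.6% of FGF21 and 13.1% of vehicle microglia-like cells, at 6024 UMIs in FGF21 and 4175 UMIs in vehicle cells.

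Slc6a13, the GABA and taurine transporter GAT2, had its highest ranked level in mural-like cells, at 95.7 CPM in FGF21 and 105 CPM in vehicle cells, against 4.98 and 22.1 CPM in the astrocyte-like cells of the FGF21 and vehicle library.

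The exchangers of the Slc7 family also had astrocyte-like members. Slc7a11 (chr3:49892526-50443614), which imports cystine for glutathione and releases glutamate, had 416 (380.0 to 454) CPM in FGF21 and 420.3 (359.6 to 488) CPM in vehicle cells, and the next class was the differentiating precursor-like cells with 20.7 CPM in FGF21 and 18.2 CPM in vehicle cells. The ratio was 20.0 (11.8 to 36.9) times in FGF21 and 23.1 (11.5 to 54.4) times in vehicle cells. Slc7a10, an exchanger of glycine, alanine and D-serine, had 434 (397 to 473) CPM in FGF21 and 494 (428 to 567) CPM in vehicle cells in astrocyte-like cells and 121 CPM in FGF21 and 78.7 CPM in vehicle cells in precursor-like cells. Slc7a2, a carrier of arginine and lysine, was highest in astrocyte-like cells with 180.0 CPM in FGF21 and 236 CPM in vehicle cells, but its mural-like level of 140.3 and 159 CPM was close, and the intervals of that ratio did not both lie above 1. Slc7a10 exons overlap 377 bases of Lrp3 on the other strand.

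Serine and glutamine carriers completed the astrocyte-like set. Slc1a4, the transporter ASCT1 for serine, alanine and cysteine, had 394 (359 to 431) CPM in FGF21 and 283 (233 to 339) CPM in vehicle cells, and the astrocyte-like level was 4.70 (4.11 to 5.36) times in FGF21 and 4.63 (3.60 to 5.94) times in vehicle cells the precursor-like one. Slc38a3, the system N carrier SNAT3 through which astrocytes release glutamine, had 236 CPM in FGF21 and 221 CPM in vehicle cells in the astrocyte-like class and 140.1 CPM in FGF21 and 109 CPM in vehicle cells in the precursor-like class. In microglia-like, differentiating precursor-like and oligodendrocyte-like cells the Slc38a3 UMIs did not exceed background in either library.

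Microglia-like cells had the Slc7 light chains of another kind. Slc7a8 (chr14:54722209-54781946), the light chain LAT2 that exchanges neutral amino acids, had 411 (395 to 429) CPM in FGF21 and 404 (388 to 421) CPM in vehicle cells, and the next class, the precursor-like cells, had 62.3 CPM in FGF21 and 64.7 CPM in vehicle cells. The microglia-like level was 6.60 (5.87 to 7.45) times in FGF21 and 6.24 (5.31 to 7.38) times in vehicle cells that level, and the precursor-like UMIs did not exceed background. Slc7a7, the light chain y+LAT1 that exports arginine and lysine and is known from macrophages, had 115 (106 to 124) CPM in FGF21 and 127 (118 to 136) CPM in vehicle cells. No other ranked class had more than 21.1 CPM of Slc7a7, the vehicle mural-like value. Slc7a7 exons overlap 232 bases of Oxa1l on the other strand.

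The remaining microglia-like genes include several proteins of the lysosome. Slc36a1, a proton-coupled carrier that exports small amino acids from lysosomes, had 161 CPM in FGF21 and 223 CPM in vehicle cells, and its level was 2.54 (2.23 to 2.89) times in FGF21 and 2.66 (2.29 to 3.10) times in vehicle cells the precursor-like one. Slc38a9, the arginine sensor of the lysosome, and Slc38a7, a lysosomal glutamine and asparagine exporter, were only slightly above the next class, and the intervals of their ratios did not lie above 1 in both libraries. Slc38a9 had 83.8 CPM in FGF21 and 95.9 CPM in vehicle cells in the microglia-like class, and Slc38a7 had 69.2 CPM in FGF21 and 64.9 CPM in vehicle cells. Slc38a1, a glutamine importer, had 99.8 CPM in FGF21 and 109 CPM in vehicle cells, while FGF21 differentiating precursor-like cells had 97.8 CPM. Slc36a2, a carrier of glycine and proline, was sparse, with 30 FGF21 and 52 vehicle UMIs in all microglia-like cells.

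Slc6a20a (chr9:123634770-123678885), the proline transporter SIT1, had 1206 (1039.9 to 1390.4) CPM in FGF21 and 1517 (1413 to 1626) CPM in vehicle cells in mural-like cells, against 10.8 and 46.7 CPM in the next, astrocyte-like class of the FGF21 and vehicle library. The ratio was 112 (63.8 to 214) times in FGF21 and 32.5 (20.7 to 54.2) times in vehicle cells. After thinning, 77.8% of 36 FGF21 and 86.5% of 156 vehicle mural-like cells had a Slc6a20a UMI, against 1.85% of FGF21 and 5.79% of vehicle microglia-like cells. The unthinned shares were 82.5% of FGF21 and 88.4% of vehicle mural-like cells, at median depths of 3742 UMIs in FGF21 and 2776 UMIs in vehicle cells, and 5.73% of FGF21 and 12.6% of vehicle microglia-like cells. Slc6a20b, a near-identical neighbour, reached at most 29.5 CPM in a ranked class, and how reads were divided between the pair cannot be checked here. Slc6a20a exons also overlap 563 bases of an opposite-strand transcript.

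Slc38a11, a member of the glutamine carrier family, had 191 (129 to 273) CPM in FGF21 and 245 (205 to 291) CPM in vehicle cells in mural-like cells. Its level in any other ranked class was at most 14.7 CPM. Slc1a5, the neutral amino acid transporter ASCT2, had 217 CPM in FGF21 and 174 CPM in vehicle cells, and the ratio to the next class was 16.3 (8.78 to 31.7) times in FGF21 and 12.4 (9.09 to 16.9) times in vehicle cells. Slc6a17, a neutral amino acid carrier known from synaptic vesicles, had 95.7 CPM in FGF21 and 109 CPM in vehicle cells in the mural-like class. It rested on 15 FGF21 and 57 vehicle UMIs there. Slc6a20a, Slc38a11, Slc1a5 and Slc6a17 are 4 of the 10 carriers at least 5-fold above the next class. Mural-like cells also held 301 of the 733 such genes over all genes. The mural-like class was small in the FGF21 library, with 40 cells.

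**Figure D2:**
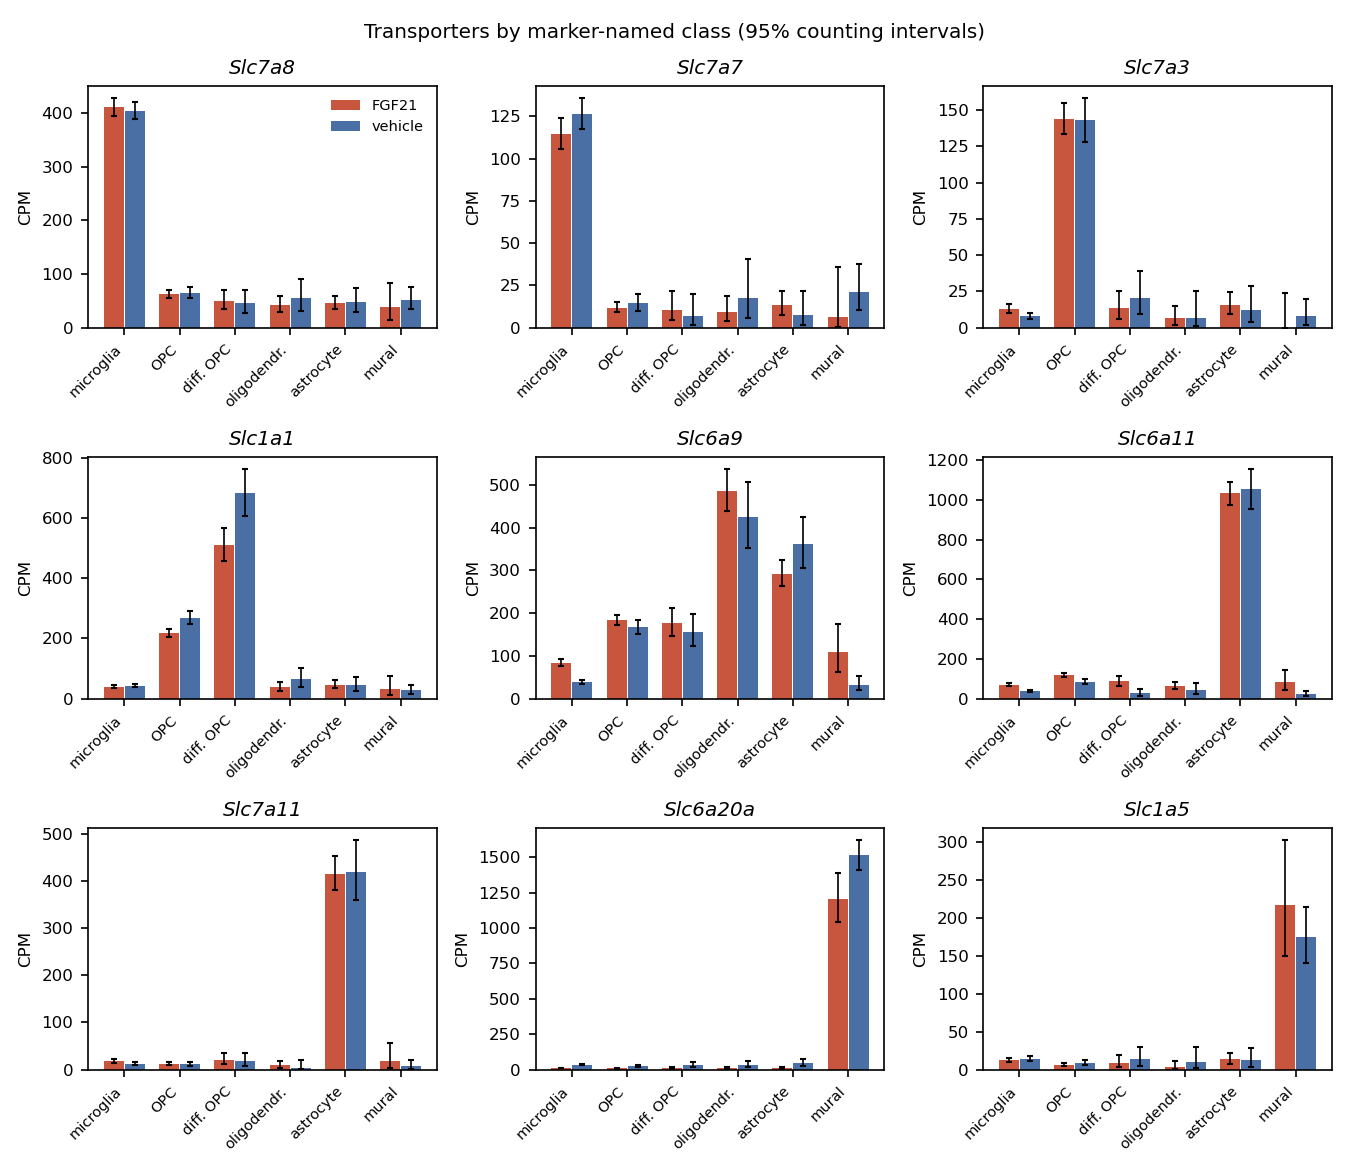
Levels in CPM (bars, from 0) of 9 transporters in the 6 ranked classes, named from markers, with OPC for oligodendrocyte precursor-like cells, FGF21 left of vehicle and 95% counting intervals. In each panel 1 class lies above the others in both libraries, with overlapping vehicle intervals of oligodendrocyte-like and astrocyte-like cells for Slc6a9.

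The heavy chain Slc3a2 was the most widely found gene of the group, with a UMI in 2952 of the cells kept. Its level was 424 CPM in FGF21 and 528 CPM in vehicle cells in the astrocyte-like class, 328 CPM in FGF21 and 369.9 CPM in vehicle cells in the microglia-like class and 168 CPM in FGF21 and 163 CPM in vehicle cells in the precursor-like class. Its light chains did not share a class: Slc7a8 and Slc7a7 were microglia-like, Slc7a10 and Slc7a11 astrocyte-like, and Slc7a6 was nominally highest in differentiating precursor-like cells, with intervals of the ratio that included 1. Slc7a5, the light chain LAT1 of the blood-brain barrier, reached at most 37.5 CPM in a ranked class. It was higher in the few endothelial-like cells, as given below.

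Along the oligodendrocyte lineage, 3 patterns were seen. Slc7a3, the cationic amino acid transporter CAT3, was highest in precursor-like cells, with 144, 13.3 and 6.43 CPM in FGF21 precursor-like, differentiating precursor-like and oligodendrocyte-like cells. The vehicle values were 143, 20.5 and 6.90 CPM in the same order. Only the precursor-like level exceeded background in the FGF21 library, and a Slc7a3 UMI was found in 6.10% of FGF21 and 4.88% of vehicle oligodendrocyte-like cells, at median depths of 9187 UMIs in FGF21 and 7208 UMIs in vehicle cells. With cells thinned to 2000 UMIs, 0 of 80 FGF21 and 0 of 38 vehicle oligodendrocyte-like cells had one, which at that depth allows shares of cells with a UMI of up to 4.51% in FGF21 and 9.25% in vehicle (upper limits of the exact intervals).

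Slc1a1, the glutamate and cysteine transporter EAAT3, peaked in the middle of the lineage. The FGF21 levels were 218, 509.6 and 37.3 CPM in precursor-like, differentiating precursor-like and oligodendrocyte-like cells, and the vehicle levels were 268, 682 and 65.6 CPM. The middle class was 2.33 (2.06 to 2.64) times in FGF21 and 2.54 (2.21 to 2.92) times in vehicle cells the precursor-like class. Slc1a1 exons overlap 2631 bases of 4430402I18Rik on the opposite strand, so reads of the pair may not be separated.

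In oligodendrocyte-like cells 3 carriers had their highest level. Slc6a9, the glycine transporter GlyT1, had 185, 176 and 487 CPM along the FGF21 lineage and 167, 157 and 425 CPM along the vehicle lineage. The next ranked class was astrocyte-like, with 293 CPM in FGF21 and 361 CPM in vehicle cells, and the interval of the ratio reached 1 in the vehicle library. With classes assigned cell by cell, the vehicle oligodendrocyte-like level was 0.847 times the astrocyte-like one. Slc38a2, the amino acid carrier SNAT2, had 299.5 CPM in FGF21 and 435 CPM in vehicle cells in the oligodendrocyte-like class, 1.89 (1.497 to 2.40) times in FGF21 and 2.52 (1.88 to 3.39) times in vehicle cells the differentiating precursor-like level. Slc6a6, the taurine transporter, had 158 CPM in FGF21 and 197 CPM in vehicle cells, with the microglia-like class close behind at 146 and 159.9 CPM. Slc6a9 exons overlap 1429 bases of Ccdc24 on the opposite strand.

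**Figure D3:**
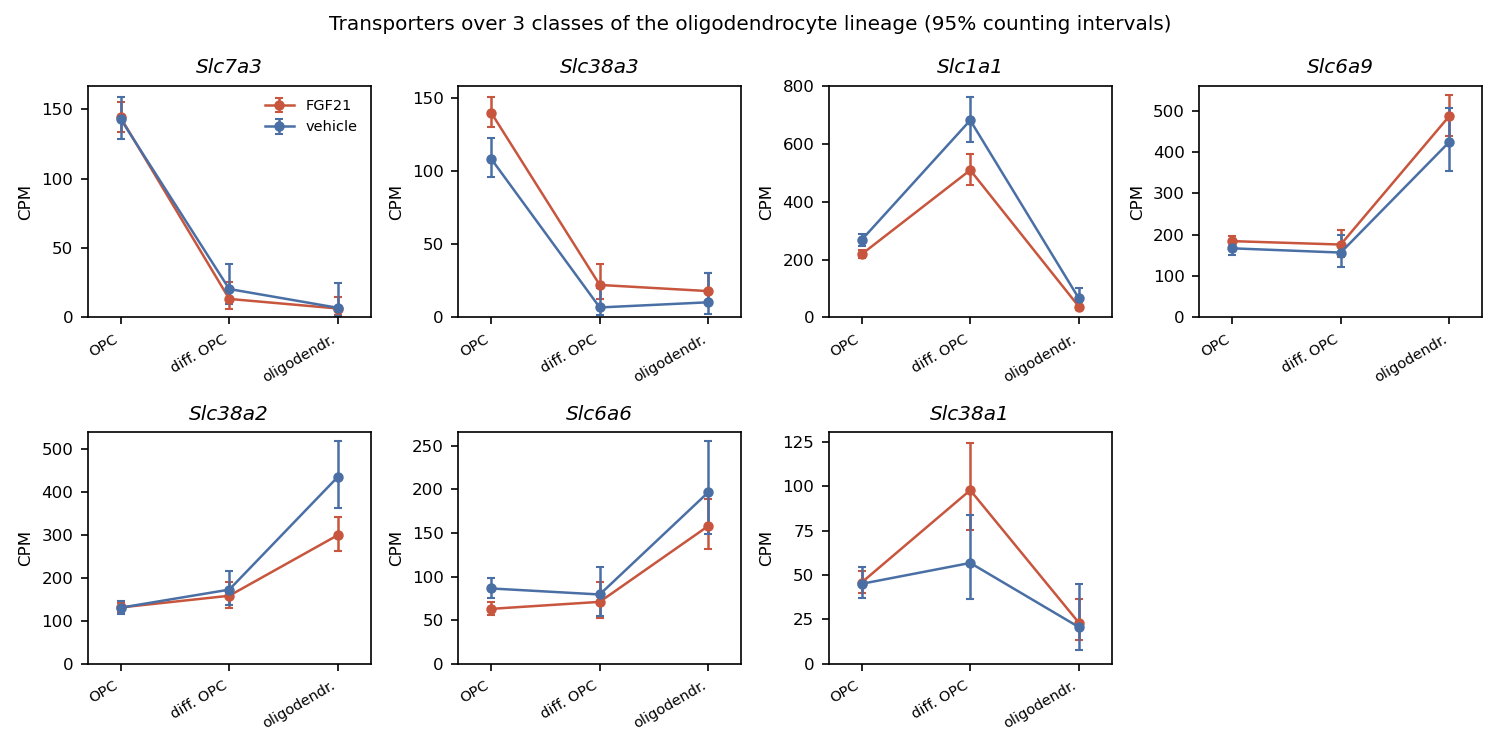
Levels in CPM of carriers in precursor-like, differentiating precursor-like and oligodendrocyte-like cells, with 95% counting intervals and 1 line for FGF21 and 1 for vehicle. Slc7a3 declines, Slc1a1 peaks in the middle class and Slc6a9 and Slc38a2 are highest in the last.

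Some carriers were highest in classes too small for the ranking, so the classes named above hold only among the 6. In 9 FGF21 and 19 vehicle fibroblast-like cells, Slc6a13 had 1478 (1122 to 1910.5) CPM in FGF21 and 1746 (1449 to 2087) CPM in vehicle cells, with a UMI in 9 of 9 and 19 of 19 cells. Slc7a11 had 1172 (858 to 1563) CPM in FGF21 and 1732 (1436 to 2071) CPM in vehicle cells in fibroblast-like cells, above its astrocyte-like level in both libraries. Slc6a20a had 866 CPM in FGF21 and 1097 CPM in vehicle cells there, and Slc1a5 had 662 CPM in FGF21 and 361 CPM in vehicle cells. The background in these values was between 0.203% and 2.86%. In 13 FGF21 and 37 vehicle border macrophage-like cells, Slc7a8 had 96.0 CPM in FGF21 and 384 (266 to 537) CPM in vehicle cells, from 4 and 34 UMIs. The vehicle value was close to the microglia-like one. Slc38a6 had 168 CPM in FGF21 and 147 CPM in vehicle cells there, from 7 and 13 UMIs, against 55.3 and 75.5 CPM in microglia-like cells.

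In 16 FGF21 and 31 vehicle endothelial-like cells, Slc6a6 had 1969 (1604 to 2393) CPM in FGF21 and 877 (653 to 1154) CPM in vehicle cells. These rest on 101 and 51 UMIs. Slc7a5 had 253 CPM in FGF21 and 619 CPM in vehicle cells, Slc7a1, the arginine transporter CAT1, had 97.5 CPM in FGF21 and 499 CPM in vehicle cells, and Slc38a5 had 78.0 CPM in FGF21 and 189 CPM in vehicle cells. Slc38a5 had 4 FGF21 and 11 vehicle UMIs in endothelial-like cells and at most 3 in any ranked class of either library. With 1 library per treatment and so few cells, these endothelial-like differences between FGF21 and vehicle are listed only as values.

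Between the treatments, 18 of 20 counted carriers were within 1.5-fold in astrocyte-like, 28 of 34 in precursor-like and 19 of 33 in microglia-like cells. Of all counted genes of these classes, 20.0%, 10.7% and 17.4% were called in either direction. A gene was counted with at least 50 UMIs over both libraries in a class, and called where the FGF21 level was at least 1.5 times higher or lower than the vehicle level. In astrocyte-like cells 20 of the 40 genes were counted, 1 was higher and 1 lower in FGF21, where 11.9% and 8.14% of all 6128 genes were called (20.0% in either direction). Slc6a8, the creatine transporter, was the higher one, with 56 FGF21 and 9 vehicle UMIs and a ratio of 2.10 (1.03 to 4.83). Slc36a1 was the lower one, at 0.653 (0.417 to 1.04), and 62.9% of its UMIs equalled background. With a stricter cell filter or thinned cells, 0 transporters were counted as higher in FGF21 astrocyte-like cells. The abundant astrocyte-like carriers had ratios near 1, with 0.980 (0.878 to 1.10) for Slc6a11 and 0.989 (0.830 to 1.18) for Slc7a11. The ratio of Slc1a4 was 1.39 (1.13 to 1.72) and that of Slc3a2 was 0.802 (0.683 to 0.945), both under 1.5-fold with intervals that did not include 1. In the astrocyte-like cells the 8 oligodendrocyte markers summed to 1510.5 CPM in FGF21 and 737 CPM in vehicle cells, the 8 precursor markers to 1438 CPM in FGF21 and 858 CPM in vehicle cells and the 9 mural markers to 264 CPM in FGF21 and 668 CPM in vehicle cells, with 2 mural markers at 0 in vehicle cells, and their part in the ratios was not tested.

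In precursor-like cells 34 of the 40 genes were counted, 2 were higher and 4 lower in FGF21, where 5.90% and 4.85% of all 11398 genes were called (10.7% in either direction). The higher ones were Slc7a10, with 121 CPM in FGF21 and 78.7 CPM in vehicle cells and a ratio of 1.54 (1.30 to 1.82), and Slc7a1, with 39.7 CPM in FGF21 and 25.4 CPM in vehicle cells and a ratio of 1.56 (1.17 to 2.11). The lower ones were Slc6a20a at 0.337 (0.225 to 0.502), Slc7a4 at 0.509 (0.338 to 0.768), Slc6a20b at 0.529 (0.335 to 0.838) and Slc7a6os at 0.640 (0.452 to 0.909). Background predicted all Slc6a20a UMIs of this class. Exons of Slc6a20b overlap 1800 bases of Sacm1l, and those of Slc7a4 overlap 554 bases of P2rx6, on the opposite strand. After cells were thinned to 2000 UMIs the ratios were 1.45 for Slc7a10, 1.47 for Slc7a1 and 1.04 for Slc7a4, all inside 1.5-fold. Slc7a3 had a ratio of 1.01 (0.886 to 1.15) and Slc1a1 of 0.815 (0.739 to 0.899). The 2 clusters that hold these cells differ in library, 1 with mostly FGF21 and 1 with mostly vehicle cells. Markers of other cell types also differed in the precursor-like cells. The 9 astrocyte markers summed to 678 CPM in FGF21 and 436 CPM in vehicle cells, the 8 oligodendrocyte markers to 1579 CPM in FGF21 and 1004 CPM in vehicle cells and the 9 mural markers to 164 CPM in FGF21 and 569 CPM in vehicle cells, with none at 0. The part of these markers in the ratios was not tested.

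In microglia-like cells 33 of the 40 genes were counted, 8 were higher and 6 lower in FGF21, where 12.1% and 5.29% of all 11372 genes were called (17.4% in either direction). The 8 higher genes included Slc38a3, Slc7a10, Slc6a9, Slc6a11, Slc7a1, Slc1a4 and Slc7a3, and for all 8 but Slc7a1 more than 50% of the UMIs equalled background. Slc38a3 had 21.6 CPM in FGF21 and 6.52 CPM in vehicle cells, a ratio of 3.32 (2.29 to 4.91), with background at 144% of its UMIs, where a value above 100% means that more was predicted than found. Slc7a10 had 58.6 CPM in FGF21 and 25.7 CPM in vehicle cells, a ratio of 2.28 (1.87 to 2.78), and Slc6a9 had a ratio of 2.14 (1.82 to 2.52). Except for Slc7a1 and Slc7a3, the genes named are genes of the astrocyte-like or oligodendrocyte-like classes. Of the 19 counted genes with at most 50% background, 1 was higher and 3 were lower. Over all genes, 9110 of 11372 had at most 50% background, and the share called among them was not computed. Background subtraction left out the genes with over 50% background, and 1 transporter in all was then higher in FGF21 microglia-like cells. The higher genes other than Slc7a1 thus could not be counted at that setting.

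Markers of other cell types moved with these values in the microglia-like cells. The 9 astrocyte markers summed to 448 CPM in FGF21 and 198 CPM in vehicle cells, the 8 oligodendrocyte markers to 1428 CPM in FGF21 and 697 CPM in vehicle cells, the 8 precursor markers to 1305 CPM in FGF21 and 775 CPM in vehicle cells and the 9 mural markers to 179 CPM in FGF21 and 556 CPM in vehicle cells. No marker of these 4 lists was at 0 in either library. The astrocyte, oligodendrocyte and precursor markers were thus higher, and the mural markers lower, in FGF21 microglia-like cells, and their part in the transporter ratios was not tested.

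Slc7a1 was the 1 higher gene with less background, with 35.1 CPM in FGF21 and 19.4 CPM in vehicle cells, a ratio of 1.81 (1.43 to 2.31) and 35.2% background. Of the 6 lower genes, 3 were mostly background, Slc6a20a at 0.303 (0.221 to 0.410), Slc6a13 at 0.312 (0.176 to 0.527) and Slc6a17 at 0.450 (0.228 to 0.846). Each of these was highest in mural-like cells among the 6 ranked classes, and Slc6a13 was higher still in fibroblast-like cells. The others were Slc36a2 at 0.606 (0.373 to 0.968), Slc6a20b at 0.621 (0.437 to 0.876) and Slc7a6os at 0.664 (0.514 to 0.855). The opposite-strand overlap of Slc6a20b is given above. Among the genes highest in microglia-like cells of both libraries, Slc7a8 had a ratio of 1.02 (0.961 to 1.08) and Slc7a7 of 0.905 (0.813 to 1.01). The Slc38a1 level was close to that of differentiating precursor-like cells in the FGF21 library, and its ratio was 0.919 (0.819 to 1.03). Slc36a1, the lysosomal exporter, was at 0.720 (0.660 to 0.784), and Slc3a2 at 0.887 (0.833 to 0.944). The median log2 ratio of the counted transporters was -0.12 in microglia-like, 0.01 in precursor-like and -0.02 in astrocyte-like cells, and that of all counted genes was 0.03, -0.01 and 0.00.

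**Figure D4:**
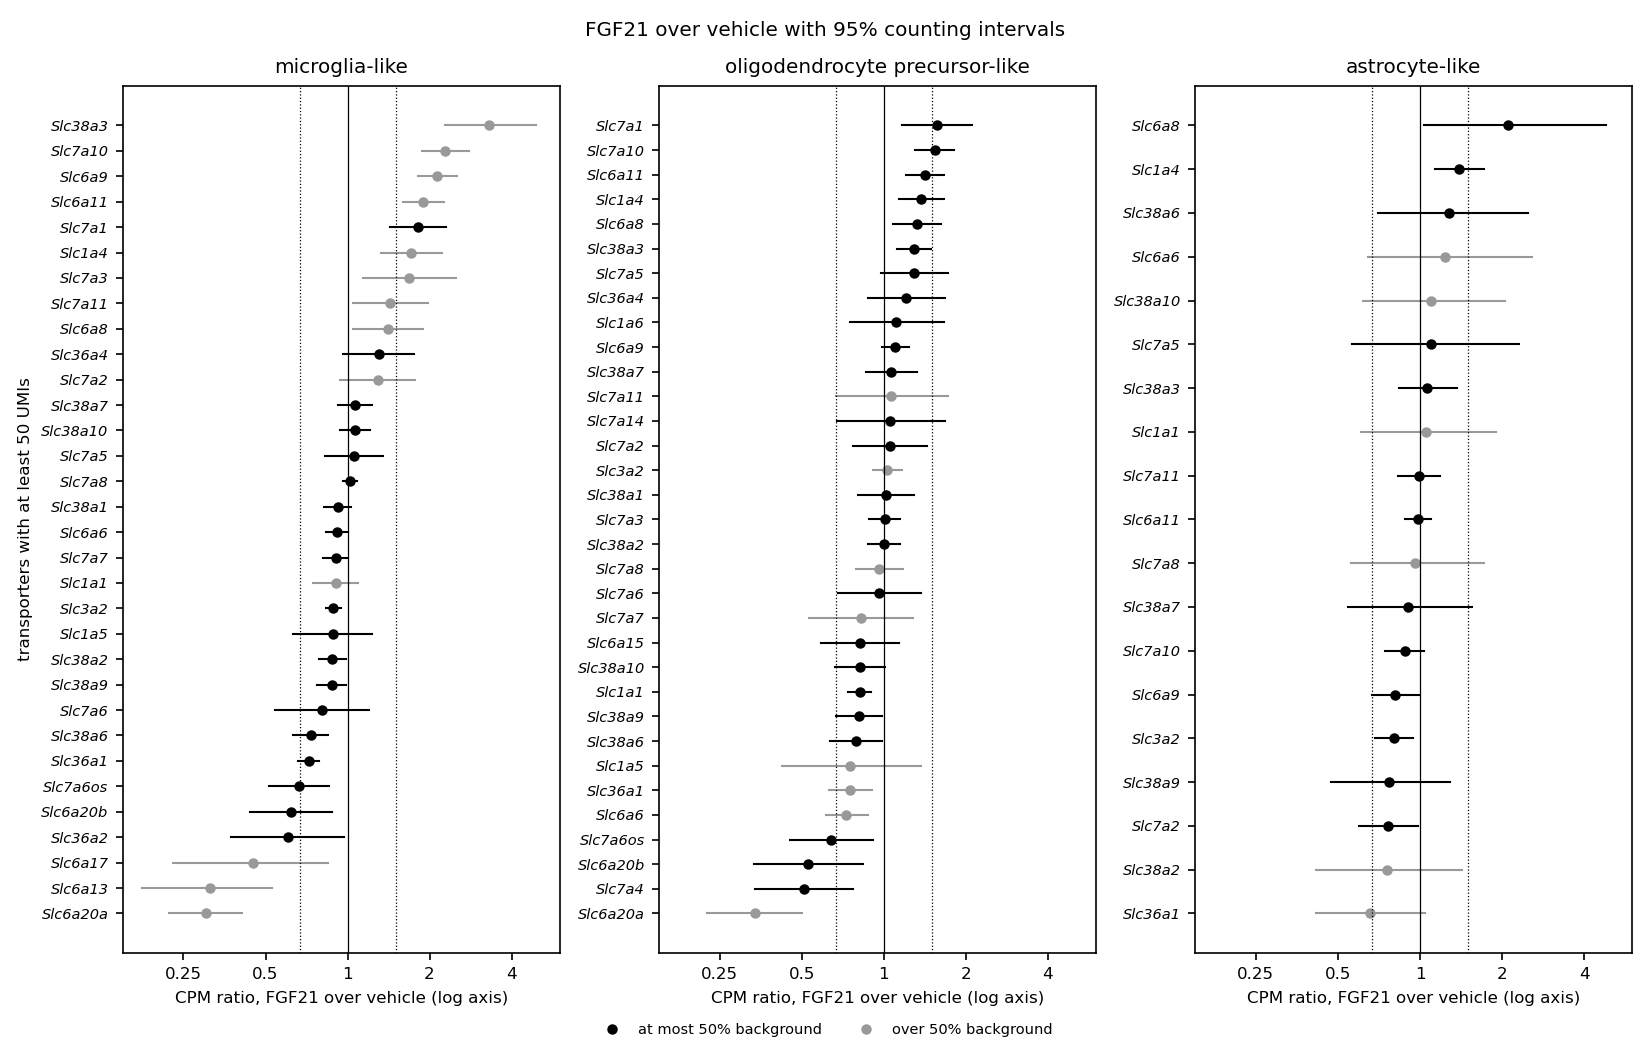
Ratio of FGF21 over vehicle for counted transporters in the 3 compared classes, on a log axis with 95% counting intervals, split by whether more than 50% of the UMIs equal background. In microglia-like cells Slc7a1 is the 1 gene at or above 1.5-fold with at most 50% background.

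Genes of amino acid metabolism around the carriers were taken from 6 lists, some of which share genes. Of their 106 genes with a column, 90 were counted in microglia-like cells, and 22 were higher and 0 lower in FGF21, where 12.1% and 5.29% of all genes were called. Of the 22 higher genes, 13 were mostly background. After background subtraction the microglia-like counts were 7 higher and 5 lower. Genes that were mostly background were left out at that setting, so those 13 higher genes could not be counted whatever the subtraction gave. The smaller number of higher genes thus does not show what subtraction did to them. The share of all genes called after subtraction is not given here. In precursor-like cells 8 of 88 were higher and 1 lower, where 5.90% and 4.85% of all genes were called. In astrocyte-like cells 7 of 53 were higher and 3 lower, where 11.9% and 8.14% of all genes were called, so the share of higher genes was near that of all genes. No test was made, since there is 1 library per treatment.

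The enzymes of serine and glycine metabolism had 7 of 13 counted genes higher in microglia-like cells, where 12.1% of all genes were called higher. They were Phgdh, Shmt2, Gldc, Amt, Gcsh, Mthfd2 and Mthfd1l, 2 of them mostly background. Phgdh, the first enzyme of serine synthesis, had 93.5 CPM in FGF21 and 61.6 CPM in vehicle cells, a ratio of 1.52 (1.32 to 1.74) with 35.1% background. Psat1, the next enzyme, had a ratio of 1.27 (1.09 to 1.49) with 82.0% background. Mthfd2, of the mitochondrial folate pathway, had 32.4 CPM in FGF21 and 13.9 CPM in vehicle cells, a ratio of 2.33 (1.79 to 3.07). The list's median log2 ratio was 0.60 in microglia-like, 0.22 in precursor-like and 0.03 in astrocyte-like cells, against medians over all genes of 0.03, -0.01 and 0.00.

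Of the ATF4 response list, 6 of 19 counted genes were higher in microglia-like cells, Ddit4, Sesn2, Vldlr, Wars, Phgdh and Mthfd2, where 12.1% of all genes were called. Of these, Vldlr was mostly background, at 181% of its UMIs. Ddit4, an mTORC1 inhibitor, had 286 CPM in FGF21 and 185 CPM in vehicle cells, a ratio of 1.55 (1.43 to 1.67), and Nars, the asparagine tRNA ligase, had a ratio of 0.944 (0.875 to 1.02). Slc7a11 and Slc1a4, with the promoter matches shown above, had astrocyte-like ratios of 0.989 and 1.39, and Slc7a7 a microglia-like ratio of 0.905. Of the lysosomal sensing and mTORC1 list, 0 of 25 counted genes were higher or lower in microglia-like cells, where 17.4% of all genes were called. The list's median log2 ratio was 0.03. Flcn, the folliculin of that pathway, had a ratio of 0.915 (0.836 to 1.00), and Rraga, a Rag GTPase, of 1.26 (1.12 to 1.42).

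The 4 higher genes of the glutamate and GABA list in microglia-like cells, of 9 counted, were all mostly background, as were the 4 of 13 of the glutathione list. Of all genes in that class, 12.1% were called higher. Glul, the glutamine synthetase, had 4993 CPM in FGF21 and 4844 CPM in vehicle cells in astrocyte-like cells and a ratio of 1.03 (0.980 to 1.09). Gpt2, an alanine transaminase, had 449 CPM in FGF21 and 499 CPM in vehicle cells in precursor-like cells, a ratio of 0.899 (0.839 to 0.965). Gstm1, a glutathione transferase, had an astrocyte-like ratio of 1.00 (0.898 to 1.12), and Nfe2l2, a regulator of glutathione genes, had a microglia-like ratio of 0.831 (0.766 to 0.901). Of the carriers outside the 40 genes, Slc1a2 and Slc1a3 had astrocyte-like levels of 9926 CPM in FGF21 and 11583 CPM in vehicle cells and of 5939 CPM in FGF21 and 6041 CPM in vehicle cells, with ratios of 0.857 (0.829 to 0.887) and 0.983 (0.939 to 1.03). Of this list, 3 of 14 counted genes were higher in microglia-like cells, 2 of them mostly background, where 12.1% of all genes were called higher.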

How the data were processed

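Single cells were sequenced on the BD Rhapsody whole transcriptome platform. The deposited tables hold counts of error-corrected UMIs for each gene in each cell. They come from version 1.9.1 of the BD WTA Rhapsody pipeline, per the file headers, and the build was GRCm38, per the submitters' processing notes. The aligner, the annotation, any use of strand and the calling of cells were each not given in the sources used here. Libraries held 2455 FGF21 and 2925 vehicle barcodes, with 14585503 UMIs in FGF21 and 11130580 UMIs in vehicle. The transporters and gene lists were chosen with earlier results of these data known.

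Cells with at least 500 UMIs, 300 genes and at most 25% mitochondrial UMIs were kept. Scrublet in scanpy 1.11.5, run per library, marked 0.720% as doublets, which were removed. Cells were clustered (2000 variable genes, 30 components, 15 neighbours, Leiden resolution 1) without the 6 transporter families. Clusters took the name of the best of 14 marker lists where its mean z-score led the next by 0.5 and at least 3 markers were in 10% of its cells, and stayed unnamed with 3 division genes among the top 10. This rule, the background share (median of 12 pairs of a marker list and a class that should lack it, per library) and the cell by cell assignment were set after the clusters were seen. Gene positions came from GENCODE vM21.

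UMIs were summed per class and divided by the class total (CPM). Levels have exact Poisson and ratios exact conditional-binomial 95% intervals, which cover counting error only, and shares of cells exact Clopper-Pearson ones. Log2 ratios added 0.5 UMIs. Transporters were named if among the 4 highest of a class, at least 5-fold above the next class, among the 3 highest or lowest ratios of a compared class, or of the Slc3a2 or Slc6 groups; of each list, the 2 genes with the most UMIs. Others were named after their values were seen. Of the 40 transporters, 1 enters the counts and sums but is not reported here by itself. When tested on simulated counts of microglia-like cells, 95.6% of the intervals of 11059 unchanged genes held the true ratio, and 1.45% of these genes passed 1.5-fold. Of 50 genes made 2-fold higher 98% were called, but 42% of those made 1.5-fold higher. The simulation held only the counting error that the intervals assume, so it checks the calculation. It gives no rate of false calls between real libraries. The alternatives tried were other cell filters, classes, scalings, count minimums and thinning, background subtraction, and equal weight for each cell. Background subtraction gave FGF21 to vehicle ratios only for genes with at most 50% background in the class.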

Additional observations from a re-analysis of the deposited data

Results flagged for a closer look

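Slc6a9 had FGF21 to vehicle ratios on opposite sides of 1 in 2 classes, with intervals that did not include 1. The Slc6a9 ratio was 2.14 in microglia-like cells, at 67.4% background, and 0.810 in astrocyte-like cells, at 15.6%. With 1 library per treatment, the difference between classes was not tested.

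In the barcodes left out by the cell filter, 504 of the FGF21 and 571 of the vehicle library, Slc7a10 had 40 FGF21 and 18 vehicle UMIs, a ratio of 2.77 (1.55 to 5.14). Over the cells kept it had 114 CPM in FGF21 and 56.4 CPM in vehicle. With fewer UMIs, 3 other transporters had intervals that did not include 1 in these barcodes. Slc38a3 had 16 FGF21 and 7 vehicle UMIs, a ratio of 2.85 (1.11 to 8.20), Slc38a1 had 3 FGF21 and 17 vehicle UMIs, a ratio of 0.220 (0.0413 to 0.761), and Slc1a4 had 4 FGF21 and 16 vehicle UMIs, a ratio of 0.312 (0.0759 to 0.967). Their directions thus differed.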

How the results depend on the processing

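No paired analysis was possible because each treatment had 1 library and no result comes from a test. Of the FGF21 to vehicle ratios recomputed under the alternatives, 686 stayed inside their interval, 16 moved out of it, and 1 changed side, Slc7a4 in precursor-like cells, at 1.04 after thinning. Of the ratios of the highest to the next class, 462 stayed, 36 moved out and 1 changed side, Slc6a15 in FGF21 differentiating precursor-like over precursor-like cells, at 0.602 after thinning.

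Counts of genes past 1.5-fold depended on the setting. Transporters highest in oligodendrocyte-like cells in both libraries were 1 with cell by cell classes. Background subtraction left genes with over 50% background in a class out of the counts past 1.5-fold. After it, 1 transporter was higher in FGF21 microglia-like, 1 in precursor-like and 2 in astrocyte-like cells. Listed genes then were 7 higher and 5 lower in microglia-like, 3 higher and 3 lower in precursor-like and 7 lower in astrocyte-like cells. After thinning, 2 transporters were lower in microglia-like cells, 1 was higher in precursor-like cells, and 0 were higher and 0 lower in astrocyte-like cells. With the stricter cell filter, astrocyte-like cells had 0 higher and 2 lower transporters and 5 lower listed genes, and microglia-like cells 1 lower listed gene. Median-of-ratios scaling also gave 1 lower listed gene in microglia-like cells. At Leiden resolution 0.5, 0 transporters were lower in astrocyte-like cells.

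With a minimum of 20 UMIs, astrocyte-like cells had 3 higher and 3 lower transporters and 11 higher and 9 lower listed genes, and the lower listed genes were 1 in microglia-like and 2 in precursor-like cells. With a minimum of 1 UMI, astrocyte-like cells had 4 higher and 8 lower transporters and 13 higher and 15 lower listed genes. Precursor-like cells then had 8 lower transporters and 6 lower listed genes, and microglia-like cells 2 lower listed genes. The cause of these differences was not tested, beyond the fewer or additional genes that each setting counts.

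Depth limits the small classes most: 9 fibroblast-like and 16 endothelial-like FGF21 cells give wide intervals, and 20 of the 40 transporters could not be counted in astrocyte-like cells. Each treatment is 1 pool of 3 mice, so the spread between mice is unknown.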
